A study of Mus musculus with 287 samples.

Results

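Progenitor-leaning cells are here the single cells of mouse cerebral organoids whose Fabp7 transcript level exceeded that of Stmn2, and their exon counts were compared between clones of the labelled types SN and N. A labelled cell entered when at least 1000 genes had an exon count above 0 and when its CPM of Fabp7 (exon counts per 1e6 exon counts of the cell) was above its CPM of Stmn2. So chosen by their measured Fabp7 and Stmn2 values, 81 cells were progenitor-leaning, which is 28.2% of all cells of the series and 32.8% of the labelled cells that passed the gene minimum. SN clones gave 53 of these cells from 28 clones, beside 78 other kept cells, and N clones gave 28 cells from 13 clones, beside 88 other kept cells. A further 16 SN and 21 N cells missed the gene minimum, and 3 cells had no clone label. Counts were summed over the progenitor-leaning cells of each clone, so that the clone and not the cell was the unit of comparison.

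All cells came from organoids of genotype MADM-11GT/TG;Emx1-CreER+/-, grown from mouse embryonic stem cells without an animal host. In MADM (mosaic analysis with double markers), Cre joins split fluorescent protein genes across a chromosome pair as a progenitor divides, and the lineages that follow are green or red. Cre was tamoxifen-inducible and under the control of Emx1, a gene of dorsal forebrain progenitors. Every clone was induced with 60 nM 4-hydroxytamoxifen at day 13 and collected at day 20, so both groups share genotype, induction and age and are told apart by the labelled clone type. The labels do not spell out SN and N, and no organoid, culture or cell line clone is named, so clones may share an organoid, and every p-value here speaks of the scatter among clones alone, which may be technical. Single fluorescent cells were drawn into a glass pipette, which the collection protocol describes for neurons, and sequenced with Smart-seq3, a full-length single-cell method.

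Radial glia are the neural stem cells of the developing cortex: they divide at the ventricular surface, renew themselves under Notch signalling, and give rise to neurons directly or through Eomes-positive intermediate progenitors. Fabp7 encodes a brain fatty-acid-binding protein typical of radial glia, and Stmn2 encodes a microtubule-regulating stathmin of neurons. With time, cortical radial glia pass from making deep-layer neurons to making upper-layer neurons and then glia.

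The rule draws a line through a continuous range and not between separate groups of cells. The 4 progenitor-leaning cells nearest the line had Fabp7 to Stmn2 ratios of 1.03, 1.11, 1.11 and 1.12, and the 4 kept cells nearest on the other side had ratios of 0.992, 0.991, 0.943 and 0.897. Per cell, Fabp7 ran from 489 to 28704 CPM (median 3283) in SN and from 286.7 to 7567 CPM (median 2420) in N. Stmn2 ran from 0 to 9778 CPM (median 1581) in SN and from 0 to 4297 CPM (median 956) in N, so both genes were present in most of these cells. The ratio had a median of 2.25 over 48 SN cells and 1.75 over 26 N cells with a Stmn2 count. In 7 cells, 5 of SN and 2 of N, Stmn2 had no count, at 23386 to 1032008 exon counts per cell. Fabp7 and Stmn2 chose the cells, so their values are a description and carry no test.

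**Figure D1:**
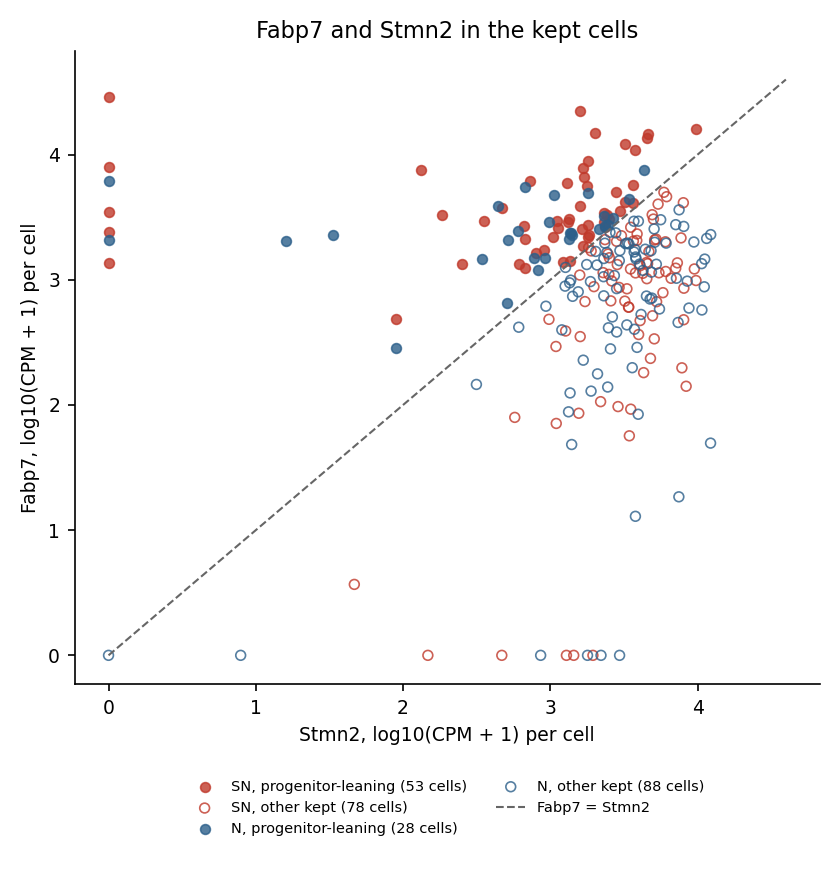
Each point is a kept cell, with Stmn2 on the x axis and Fabp7 on the y axis, both as log10(CPM + 1). Filled points above the dashed line of equal levels are the 81 progenitor-leaning cells (53 SN in red, 28 N in blue), and they border the open points of the other kept cells (78 SN, 88 N) with no gap.

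The label held for the radial glial markers, with neuronal transcripts alongside. Vim, the intermediate filament of radial glia, had a count in 76 of 81 cells, and Dbi, a small acyl-CoA-binding protein abundant in progenitors, had one in 78. All 3 markers Fabp7, Vim and Dbi were counted in 52 of 53 SN cells and in 21 of 28 N cells, where 4 SN and 5 N cells held under 100000 exon counts. Of the 24 radial glia genes listed beside Fabp7, 22 had a higher mean CPM in progenitor-leaning than in other kept cells, and their summed level without Fabp7 had a median of 3408 against 1712 CPM. Because the rule chose the cells on Fabp7 and Stmn2, these are descriptions. Neuronal genes were far from absent: Tubb3, a neuronal tubulin, had a count in 74 of 81 cells, Neurod6, a factor of excitatory neurons, in 65, and Sox2, a stem cell factor, together with Neurod6 in 46. A count of Top2a or Mki67, genes of dividing cells, was found in 37 of 53 SN and 20 of 28 N cells. Summed per cell, the listed G2/M genes had a median of 860 CPM in progenitor-leaning and 692 in other kept cells. For the listed intermediate progenitor genes the medians were 426 and 463 CPM, so that list was not higher here.

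Depth was uneven. Exon counts per cell ran from 37292 to 7976190 (median 893106) in SN and from 18255 to 8121884 (median 1292210) in N. Clone sums ran from 37292 to 11327731 in SN and from 18255 to 25359287 in N. A single cell made up 13 of the 28 SN sums and 6 of the 13 N sums. In the 22 clones with more cells, the deepest cell held between 32.0% and 96.2% of the sum (median 66.5%). Progenitor-leaning cells were shallower than the other kept cells, with medians of 1032008 against 1954880 exon counts and 4412 against 6380 genes. Clones that entered were of labelled size 2 to 6 (median 4) in SN and 4 to 19 (median 7) in N, so clone type and clone size largely went together. On plates 1, 2 and 3, 9, 8 and 11 SN clones stood against 3, 4 and 6 N clones.

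Progenitor-leaning cells were 40.5% of kept SN cells (95% Wilson interval 32.4% to 49.0%) and 24.1% of kept N cells (17.3% to 32.7%), intervals that cover counting error only. Clone by clone, the share ran from 0% to 100% (median 33.3%) in SN and from 0% to 75% (median 15.6%) in N. Its mean was 39.6% (SD 39.4, n = 46 clones) in SN and 23.8% (SD 26.1, n = 22 clones) in N, a difference of 15.8 percentage points that did not pass the test (two-sided permutation test with 100000 resamples, p = 0.0926). Leaving out each clone in turn moved the difference between 14.4 and 18.2 points, with p between 0.0536 and 0.128 (permutation tests with 20000 resamples). In SN, 10 of 46 clones consisted only of progenitor-leaning cells, 8 of them with 2 or more kept cells, 18 were mixed and 18 had none. In N, 13 of 22 clones were mixed, 9 had none, and no clone consisted only of such cells. SN clones held fewer kept cells on average than N clones, and a clone of few kept cells more easily consists only of such cells. These counts of clone make-up are thus a description, and a difference between SN and N in them was not tested.

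The size of that difference varied with plate and with the cells and clones taken. Plate 1 alone gave 21.6 points (exact permutation p = 0.191), plate 2 gave 26.5 (exact permutation p = 0.124) and plate 3 gave 5.27 (exact permutation p = 0.732). With cells of at least 2000 genes it was 19.6 points (permutation p = 0.0377), and with cells of at least 100000 exon counts, a setting chosen after seeing the data, also 19.6 (permutation p = 0.0403). Among clones of size 4 to 6, where the types overlap, it was 20.2 points (permutation p = 0.127, 22 SN and 11 N clones). It was smaller, at 12.4 points, for clones with 2 or more kept cells (permutation p = 0.193) and at 11.6 points with Fabp7 required to exceed 2 times Stmn2 (permutation p = 0.109). Within SN, the mean share was 25.0% in the 10 clones of size 2, 39.3% in the 14 of size 3, 46.8% in the 13 of size 4 and 46.1% in the 9 of size 5 to 6. Within N it was 50% in the 1 clone of size 4, 24.0% in the 10 clones of size 5 to 6 and 21.3% in the 11 of size 7 or more.

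**Figure D2:**
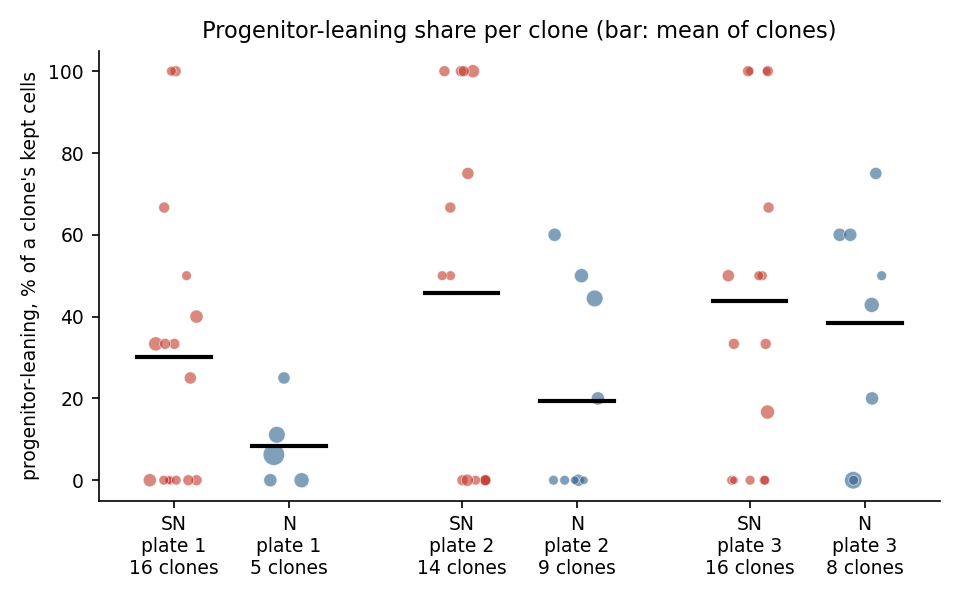
Each point is a clone, its height the percent of its kept cells that were progenitor-leaning and its area growing with the number of kept cells, by clone type and plate. Bars are means over clones; SN means lie above N means on each plate, by 21.6, 26.5 and 5.27 points, and clones of both types reach down to 0%.

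No gene passed the test between the SN and N sums of progenitor-leaning cells. With edgeR's quasi-likelihood test and plate as a term, 0 of 6945 genes passed a Benjamini-Hochberg adjusted p of 0.05 (0% called), every adjusted p was 1, and DESeq2 and limma-voom also called 0. Of all genes tested, 1.79% had the higher value in SN with an unadjusted p below 0.05, and 0.85% had the higher value in N with such a p. The same shares were 4.42% and 1.57% with DESeq2 and 4.00% and 1.30% with limma-voom. The log2 difference (SN minus N) was above 0 for 57.6% of genes, with a median of 0.17, so a list is read below against that shift. In the 601 genes that could be tested with each cell thinned to 20000 counts, the median was -0.0073 with 49.3% above 0, and in the same genes without thinning it was -0.046 with 45.6% above 0, so these genes did not carry the shift in either form. Sums were also simulated at these depths with known changes, which were placed in better-expressed genes and without a plate effect. In them the test recovered 3.06% of log2 changes of 2 and 35.3% of log2 changes of 4, so most changes of such size were not detectable at this depth.

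The larger share on the SN side, which is no excess of genes with a small p in the edgeR test, did not hold in all subsets of clones. Among clones of size 4 to 6 (17 SN, 6 N), 0.83% of genes were higher in SN and 2.25% in N at an unadjusted p below 0.05, and the median log2 difference was -0.073. The N clones of that subset were clone 12 of plate 1 and clones 49, 57, 58, 59 and 66 of plate 3. The subset and plate 3 thus shared most of their N clones and are not separate checks, and sizes were not matched within the subset. On plate 3 the shares were 0.598% and 1.44%, on plate 2 they were 1.86% and 0.666%, and on plate 1, with 3 N clones, 25.1% and 1.36%. Each of the 3 N sums on plate 1 was a single cell, so every plate 1 value here rests on 3 N cells. In the other kept cells (36 SN and 22 N clones), edgeR also called 0 of 10513 genes (0%), with 0.419% higher in SN and 1.66% in N at an unadjusted p below 0.05, a share above 0 of 39.2% and a median of -0.13. All kept cells together gave 0 of 11604 genes (0%), with 0.483% and 1.45% at an unadjusted p below 0.05 and 47.8% above 0. Without a filter on low counts the test called 936 genes higher in SN and 1613 in N of 29686, but the median gene then had a count in 2 of 41 clones, against 26 clones for the genes of the filtered test, and 9 of the 2549 calls were among the 6945 genes.

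The genes of smallest p with the higher value in SN included Spry4, Notch3, Pdzd8, Fgfr1op and Nkain3. None passed the adjusted threshold (edgeR, adjusted p = 1 for each). Spry4 (ENSMUSG00000024427.8), a feedback inhibitor of FGF and ERK signalling, ran from 0 to 530 TMM-scaled CPM (median 4.18) in SN and from 0 to 13.1 (median 0) in N. It had a count in 15 of 28 SN and 3 of 13 N clones, with a log2 difference of 5.92 ± 1.67 (SE, p = 0.000648). The groups overlapped at 0, and only SN clones lay above 13.1 CPM. Notch3 (ENSMUSG00000038146.9), a Notch receptor, ran from 0 to 1297 CPM (median 0.256) in SN and from 0 to 11.9 (median 0) in N, with a count in 14 SN and 2 N clones. Its log2 difference was 5.23 ± 1.64 (SE), and over the SN clones the SD of 249.5 exceeded the mean of 73.7 CPM.

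Pdzd8, a lipid-transfer protein of endoplasmic reticulum contacts, had log2 4.98 ± 1.68 (SE) and a count in 16 SN and 3 N clones. Fgfr1op, a centrosomal protein, had log2 4.76 ± 1.65 and Nkain3, a membrane protein that binds sodium-potassium ATPase, 3.48 ± 1.21. Fgfr1op was counted in 14 SN and 2 N clones, and Nkain3 in 16 SN and 5 N clones. The N median was 0 for Spry4, Notch3, Pdzd8, Fgfr1op and Nkain3. Their fitted values thus rest largely on clones at 0 and are no reliable fold change. In the other kept cells these 5 genes had log2 differences of -0.62, -1.60, 0.73, 0.08 and -0.59.

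On the N side the 6 genes of smallest p were Rmc1, Zdhhc2, Coasy, Rgs4, C9orf72 and Ablim3, again with an adjusted p of 1 for each (edgeR). Rgs4 (ENSMUSG00000038530.12), which shortens G-protein signals, ran from 0 to 1821 CPM (median 21.0) in N and from 0 to 310 (median 0) in SN. It had a count in 11 of 13 N and 11 of 28 SN clones (log2 -3.73 ± 1.24, SE). Rmc1, a subunit of the complex that activates the late-endosomal GTPase Rab7, ran from 0 to 1207 CPM (median 2.52) in N and from 0 to 163.7 (median 0) in SN (log2 -3.72 ± 1.14). Zdhhc2, a palmitoyltransferase, had log2 -3.55 ± 1.14 and Coasy, which makes coenzyme A, -4.52 ± 1.46. C9orf72, a gene of endosomal and autophagy regulation, had log2 -4.16 ± 1.41 and Ablim3, an actin-binding protein, -4.08 ± 1.42. Coasy, C9orf72 and Ablim3 were counted in 8, 7 and 6 N clones and in 12, 12 and 13 SN clones. The SN median was 0 for all of these genes but Zdhhc2 (0.25). These fitted values also rest largely on clones at 0 and are no reliable fold change. For each of the 6, the ranges of the clone types overlapped, and the highest N clone lay above the highest SN clone. The value of Coasy was 0.24 among clones of size 4 to 6, and that of Ablim3 was 3.82 on plate 2, so the direction turned in those clones. Single clones also moved 3 of these values by over 1.5 times on the log2 scale: Coasy was -1.53 without clone 16, C9orf72 -1.59 without clone 17 and Zdhhc2 -2.20 without clone 12.

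Most radial glia genes tested lay on the SN side. Of the 25 genes listed, 20 passed the low-count filter apart from Fabp7, and 19 of them lay above 0, as did 57.6% of all genes. The median log2 difference was 0.31 against 0.17 for all genes. In the other kept cells the median of the same 20 genes was -0.23, against -0.13 for all genes there. None passed the adjusted threshold. With each clone left out in turn, 14 to 19 genes lay above 0 (14 of 18 without clone 6) and the median ran from 0.22 to 0.69, the highest without clone 41. With the labelled clone size as a further term, chosen after seeing the data, 12 of 20 lay above 0, near the 54.2% of all genes. Among clones of size 4 to 6, 14 of 22 did, against 48.2% of all genes.

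Dbi was the one radial glia gene with an unadjusted p below 0.05. It ran from 35.6 to 2314 CPM (median 658) in SN and from 0 to 977 (median 396) in N, so the groups overlapped through most of their range. The log2 difference was 1.08 ± 0.51 (SE, edgeR p = 0.0383, adjusted p = 1), with values of 1.32, 0.87 and 1.13 within plates 1, 2 and 3 and 0.97 among clones of size 4 to 6. All genes tested within plates 1, 2 and 3 had median log2 differences of 1.18, 0.28 and 0.085, so the plate 1 value lay near a shift of all genes. It also rests on N sums of a single cell each. Vim ran from 0 to 3067 CPM (median 623) in SN and from 0 to 1355 (median 442) in N (log2 0.69 ± 0.56), but on plate 2 its value was -0.0082. Ddah1, an enzyme that breaks down methylated arginine, had log2 1.35 ± 1.03.

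The core stem cell factors had values near 0 with wide errors. Sox2 ran from 0 to 673 CPM (median 133.4) in SN and from 0 to 1226 (median 11.0) in N, and its log2 difference was 0.04 ± 0.90 (SE), a value whose sign turned in several alternatives. Pax6, the patterning factor of dorsal radial glia, had log2 -0.17 ± 1.18, and Nes, the intermediate filament nestin, 0.27 ± 1.11. Hes5, a Notch effector, ran from 0 to 336 CPM (median 7.97) in SN and from 0 to 131.8 (median 10.3) in N (log2 0.15 ± 1.18). Slc1a3, the glial glutamate transporter, had log2 0.72 ± 0.84 (0.30 without clone 20, 1.30 without clone 12) and Hopx, a marker of outer radial glia, 0.03 ± 1.87. Hes1, the other main Hes effector, was counted in 16 of 81 cells and did not pass the filter.

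**Figure D3:**
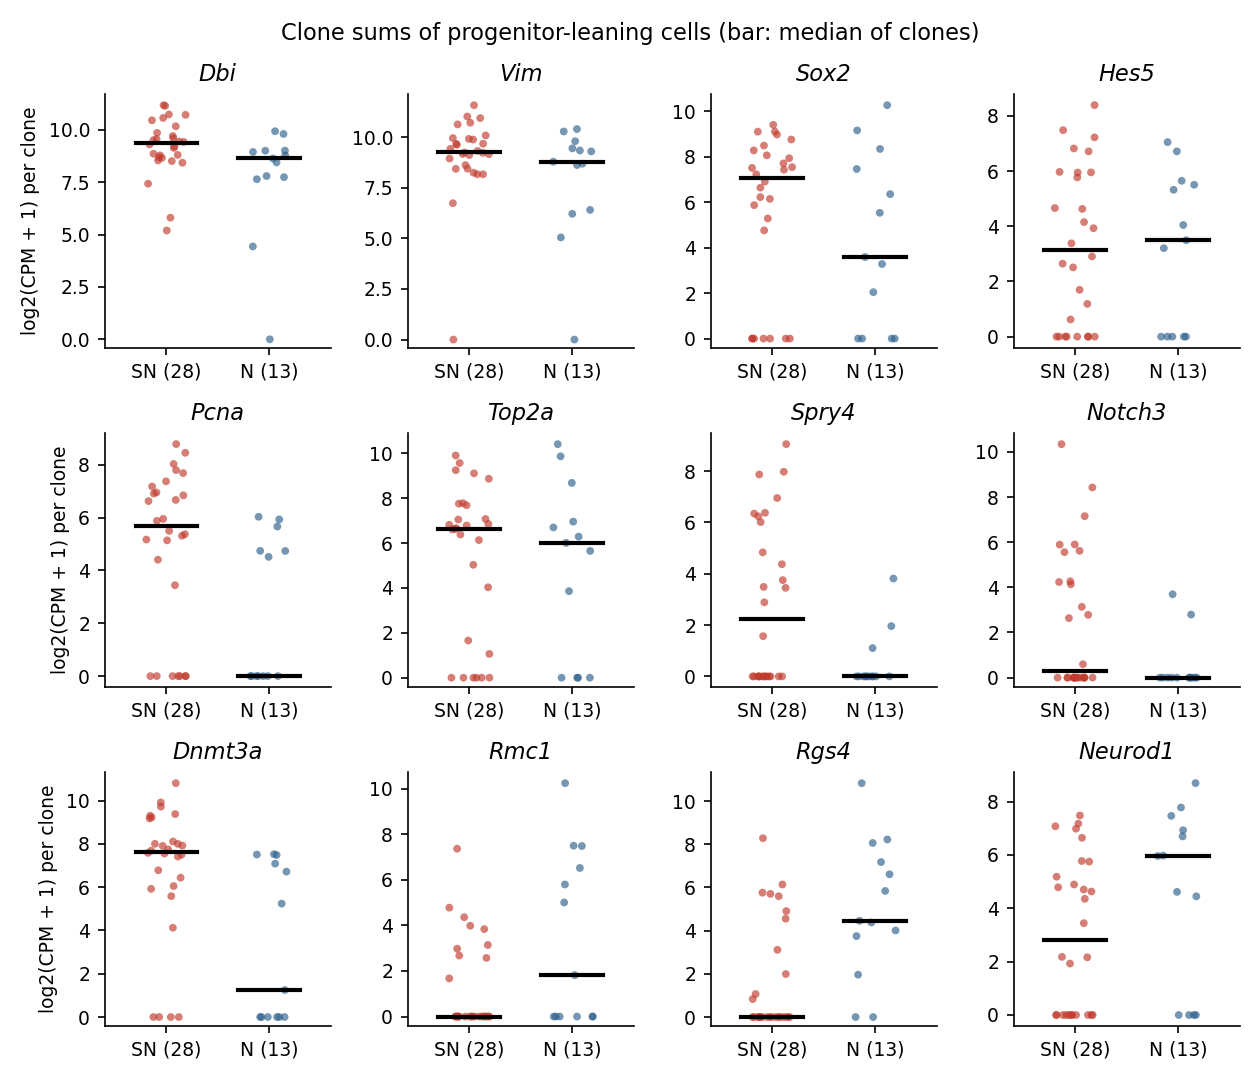
Levels of 12 genes in the 28 SN and 13 N clone sums of progenitor-leaning cells, as log2(TMM-scaled CPM + 1) on the y axis, with a point per clone and a bar at the median. More than a single clone of each type sits at 0 in each panel but those of Dbi and Vim, and the ranges of SN and N overlap in all 12.

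Of 8 intermediate progenitor genes tested, 4 lay above 0 (median 0.20), a value that single clones moved from -0.51 (without clone 52) to 0.92 (without clone 41), with 3 to 6 genes above 0. Eomes, which marks these cells, was counted in 14 of 28 SN and 4 of 13 N clones (log2 0.58 ± 1.38, SE), and Hes6, an inhibitor of Hes1, had log2 1.07 ± 1.06. Elavl2, a neuronal RNA-binding protein that appears at neuron birth, had log2 -1.32 ± 0.89 (-0.86 without clone 66). The proneural factor Neurog2 was counted in 19 cells and did not pass the filter.

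Cell cycle genes lay mostly above 0, with DNA replication genes further from it than mitotic ones. Of 13 S phase genes tested, 11 were above 0 (median 0.94), and of 16 G2/M genes, 12 were (median 0.39). Neither list had a member with an unadjusted p below 0.05. The S phase median ran from 0.61 (without clone 41) to 1.38 as clones were left out, and the G2/M median from 0.24 (without clone 6) to 0.72 (without clone 12). Pcna, the sliding clamp of DNA polymerase, ran from 0 to 440 CPM (median 51.0) in SN and from 0 to 64.4 (median 0) in N, with a count in 21 of 28 SN and 6 of 13 N clones (log2 2.35 ± 1.19, SE). Every N clone lay at or below 64.4 CPM, while the SN clones spread from 0 to well above that level. Rrm2, a subunit of the enzyme that makes deoxynucleotides, had log2 2.42 ± 1.34 and Cenpe, a kinetochore motor, 2.75 ± 1.45 (1.73 without clone 62).

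Markers of dividing cells in wide use and the D-type cyclins differed in sign and size among themselves. Top2a ran from 0 to 960 CPM (median 99.5) in SN and from 0 to 1362 (median 63.5) in N (log2 -0.41 ± 0.88, SE), and Mki67 had log2 0.34 ± 1.21. Ccnd1, a cyclin that drives entry into the cycle, had log2 2.45 ± 1.43, and Ccnd2, the more abundant cyclin of radial glia, 0.52 ± 0.63 (0.31 without clone 65, 0.96 without clone 12). In clones of size 4 to 6 the S phase list had 6 of 14 genes above 0 with a median of -0.24, against -0.073 for all genes tested there. Its direction thus turned in that subset, whose N clones were mostly of plate 3. Within plates 1, 2 and 3 its medians were 1.36, 1.82 and 0.76, against 1.18, 0.28 and 0.085 for all genes tested there.

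Signalling lists had medians above that of all genes, and single clones moved them. In the Notch pathway, 6 of 9 tested genes were above 0 (median 0.39): beside Notch3, the effector Hey1 had log2 2.28 ± 1.51 (SE), and the ligand Dll1 had -1.48 ± 1.15. Of the FGF and ERK feedback genes, 9 of 13 were above 0 (median 0.36), among them the receptor Fgfr3 at 2.55 ± 1.61 and the ERK target Etv5 at 1.59 ± 1.15. Wnt pathway genes stood at 11 of 13 (median 0.42), and BMP and Id genes at 8 of 9 (median 0.42). Id3, an inhibitor of bHLH factors induced by BMP, ran from 0 to 1017 CPM (median 66.7) in SN and from 0 to 155.2 (median 40.4) in N (log2 1.65 ± 1.03). With 1 exception each in the Notch (Notch3) and FGF lists (Spry4), no member of these 4 lists had an unadjusted p below 0.05. Among clones of size 4 to 6 the Wnt median was -0.10, with 7 of 15 genes above 0, near the median of -0.073 and the 48.2% of all genes there.

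Without clone 22 the Notch median was 0.026, below that of all genes, and without clone 12 it was 0.88. The FGF median ran from 0.18 (without clone 20) to 0.84 (without clone 49), the BMP and Id median from 0.21 (without clone 17) to 1.58 (without clone 49), and the Wnt median from 0.26 (without clone 67) to 0.65 (without clone 57). Among the genes named, Hey1 was 4.09 without clone 12, Dll1 -0.42 without clone 34, and Etv5 2.39 without clone 66. Fgfr3 was 4.32 and Id3 3.08 without clone 49.

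Genes of late, gliogenic progenitors lay above 0 in 13 of 17 cases (median 0.62), against 4 of 17 in the other kept cells (median -0.42), and none passed. Its median was 0.29 without clone 65. Several members, among them Slc1a3 and Hopx, are also on the radial glia list, so the lists are not independent. The members differed in sign, and all Nfi genes of the list lay below 0. Nfix, a late progenitor factor and the one with the smallest p, ran from 0 to 1464 CPM (median 513) in N and from 0 to 1414 (median 139.3) in SN (log2 -1.12 ± 0.65, SE). Zbtb20, a further late factor, had log2 -0.40 ± 0.76, and Olig1 and Olig2, bHLH factors of glial progenitors, 1.54 ± 1.07 and 1.09 ± 1.38 (Olig2 1.93 without clone 41). The early timing list had 5 of 8 genes above 0 (median 0.50).

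Dorsal forebrain patterning genes stood at 8 of 12 above 0 (median 0.24, from 0.0017 without clone 52 to 0.51 without clone 49). Emx1, whose control sequences drive the Cre, was counted in 12 of 28 SN and 6 of 13 N clones (log2 0.73 ± 1.33, SE), with a log2 value of 0.039 without clone 4 and 2.09 without clone 16. Emx2, a related factor of the dorsal telencephalon, had log2 2.19 ± 1.56. Of 14 chromatin and Polycomb genes, 8 were above 0 (median 0.18, from -0.047 without clone 22 to 0.45 without clone 49), and 1 gene stood out on each side. Dnmt3a, the de novo DNA methyltransferase, ran from 0 to 1782 CPM (median 197.6) in SN and from 0 to 182.8 (median 1.37) in N, with a count in 24 of 28 SN and 7 of 13 N clones (log2 2.67 ± 1.00, SE, p = 0.00893, adjusted p = 1, edgeR). Its value was 0.62 once the labelled clone size was a term. Rnf2, the ubiquitin ligase of Polycomb repressive complex 1, had log2 -2.46 ± 1.22 (p = 0.0460, adjusted p = 1, edgeR).

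Neuronal genes within these cells tended to the N side. Of 11 genes of immature excitatory neurons tested, 1 lay above 0 and the median was -0.70, against -0.29 in the other kept cells, and of 17 pan-neuronal genes 4 did (median -0.25). No member of these lists had an unadjusted p below 0.05. The immature neuron median stayed below 0 when each clone was left out in turn (-0.80 to -0.40) and on plates 1, 2 and 3 (-0.28, -0.46 and -0.47), and it was -1.47 among clones of size 4 to 6. All genes tested had medians of 1.18, 0.28 and 0.085 on plates 1, 2 and 3 and -0.073 among clones of size 4 to 6. With Fabp7 required to exceed 2 times Stmn2, 4 of 10 immature neuron genes lay above 0 with a median of -0.19. For all genes in that setting, 58.0% lay above 0 with a median of 0.22. Stmn2, which the rule used, had clone medians of 1790 CPM in SN and 1403 in N.

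Neurod1, a differentiation factor of newborn neurons, ran from 0 to 177.2 CPM (median 6.69) in SN and from 0 to 412 (median 61.2) in N (log2 -1.59 ± 1.05, SE). Nrp1, a semaphorin receptor, had log2 -1.11 ± 0.86 (-0.55 without clone 16), Nefm, a neurofilament, -1.30 ± 0.79 (-0.81 without clone 66), and Snap25, a synaptic fusion protein, -1.06 ± 0.78. Neurod6 went the other way at 0.55 ± 0.77, and Tubb3 had -0.25 ± 0.49. Deep-layer genes had 4 of 9 above 0 (median -0.14), including the corticothalamic co-repressor Tle4 at 2.68 ± 1.34 (p = 0.0495, adjusted p = 1, edgeR), and upper-layer genes 4 of 12 (median -0.23). As clones were left out, the pan-neuronal median ran from -0.33 to -0.13 (without clone 16), the upper-layer median from -0.39 to -0.078 (without clones 33 and 23) and the deep-layer median from -0.31 to 0.30 (without clones 67 and 58).

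**Figure D4:**
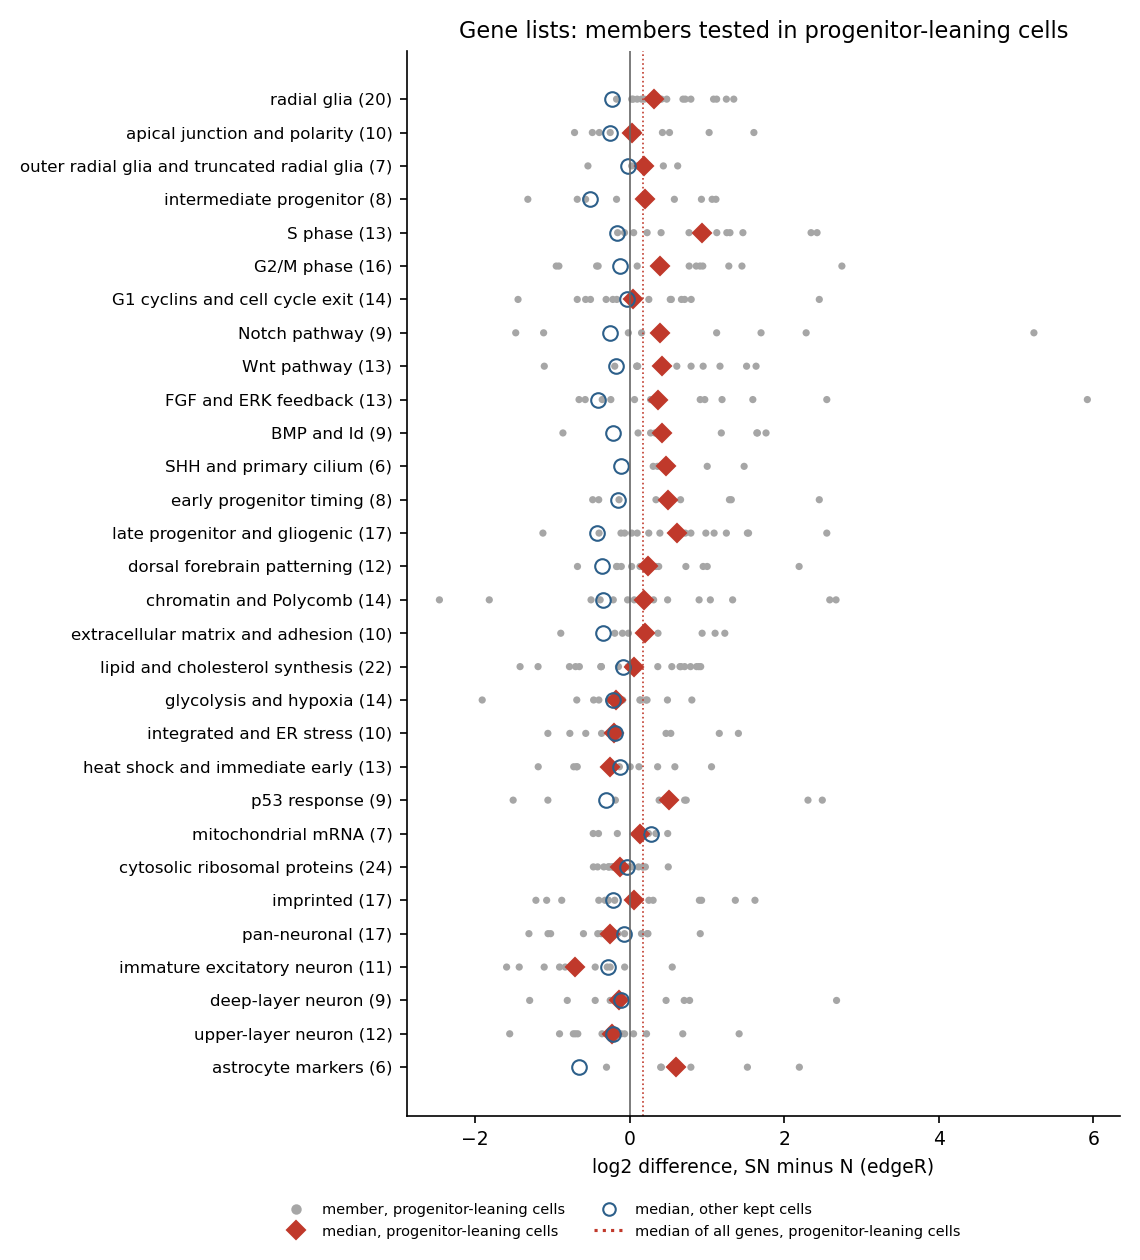
Log2 differences (SN minus N, edgeR) of the listed genes tested in progenitor-leaning cells, for lists with at least 5 tested genes (number in brackets). Grey points are genes, red diamonds list medians, open circles the medians of the same lists in the other kept cells, and the dotted line the median of all genes (0.17); S phase sits furthest to the right and immature excitatory neuron furthest to the left.

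Among housekeeping lists, cytosolic ribosomal proteins had 6 of 24 genes above 0 (median -0.12) and glycolysis and hypoxia 6 of 14 (-0.18), both below the median of all genes. The 601 genes that could be tested after thinning had a median of -0.046 without thinning, nearer to these lists. Lists were not compared with genes of like abundance. Lipid and cholesterol synthesis had 12 of 22 (0.05), and imprinted genes 9 of 17 (0.06). The p53 response list stood at 6 of 9 (median 0.51), with Sesn1, a stress-induced regulator of mTORC1, at log2 2.31 ± 1.28 (SE). With single clones left out, the medians ran from -0.22 to 0.020 (ribosomal, without clones 16 and 66), -0.32 to 0.015 (glycolysis, clones 59 and 68), -0.035 to 0.19 (lipid, clones 59 and 12), -0.19 to 0.23 (imprinted, clones 13 and 58) and 0.088 to 0.74 (p53, clones 52 and 68).

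Markers of other cell types were counted in both clone types, with overlapping ranges; no test was run on their sums. Summed over 15 choroid plexus and hem markers, clones ran from 0 to 602 CPM (median 18.2) in SN and from 0 to 887 (median 148.5) in N. Over 11 oligodendrocyte lineage markers, which include Olig1 and Olig2, they ran from 0 to 1059 (median 148.7) in SN and from 0 to 686 (median 21.6) in N. In SN and N, astrocyte markers had medians of 484 and 402 CPM, endothelium and microglia markers 7.45 and 3.63, mesenchyme markers 17.0 and 32.3, Cajal-Retzius markers 211.3 and 249.4, GABAergic markers 47.7 and 66.7, and pluripotency markers 0 and 0, with Pou5f1 and Zfp42 at 0 in every clone. The part of these cells in the gene values was not tested.

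The mitochondrial share of exon counts averaged 7.50% in SN (SD 4.10, n = 28 clones) and 5.95% in N (SD 3.15, n = 13), a difference of 1.55 points that did not pass (permutation p = 0.236, adjusted over 5 library measures 0.751). By plate, from 1 to 3, it was -0.56, 1.97 and 1.75 points (exact permutation p = 0.764, 0.374 and 0.469). In the other kept cells the means were 6.50% and 4.66% (permutation p = 0.0165, adjusted 0.0826). Of the mitochondrial rRNAs, mt-Rnr1 and mt-Rnr2 had log2 differences of 0.13 ± 0.28 and 0.07 ± 0.25 (SE) in progenitor-leaning and 0.64 and 0.58 in other kept cells.

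The further library measures did not pass the test either. Intron counts were 26.5% of exon plus intron counts in SN and 26.9% in N (permutation p = 0.876), and detected genes per cell 5221 and 4645 (permutation p = 0.514). With each cell thinned to 20000 exon counts, which left out 1 N cell, detected genes were 2656 and 2407 (permutation p = 0.437). The most abundant gene ID that has no symbol (ENSMUSG00000119584) took 19.9% of exon counts in SN and 24.9% in N (permutation p = 0.301). On plate 1 its share was 11.0% in SN and 13.8% in N, on plate 2, where the direction turned, 16.6% and 14.8%, and on plate 3 29.6% and 37.1%.

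**Figure D5:**
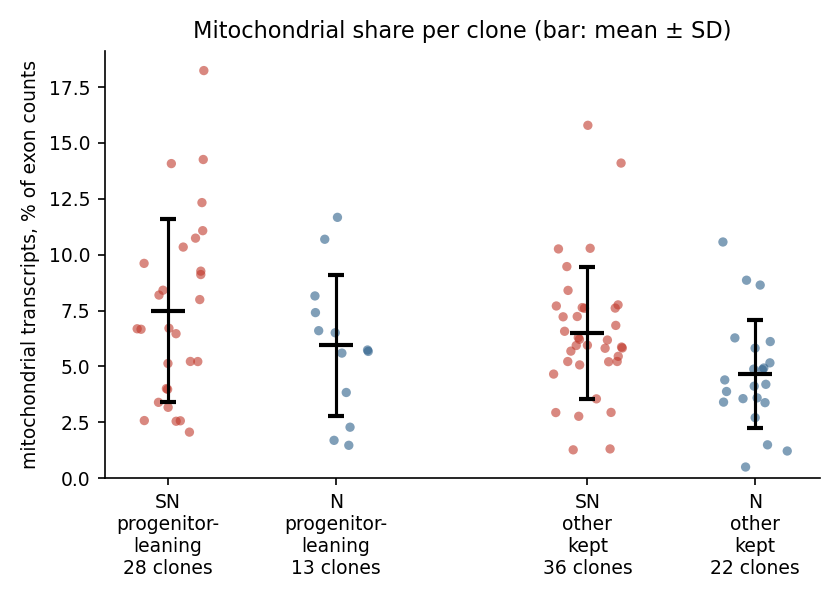
Mitochondrial share of exon counts per clone, as the mean over its cells, in progenitor-leaning and other kept cells of SN and N clones. Bars give the mean ± SD over clones; SN means lie above N means in both classes (7.50% against 5.95%, and 6.50% against 4.66%), with overlapping ranges.

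Whether SN and N differed in another way in progenitor-leaning than in other kept cells was tested within clones that held both (18 SN and 13 N clones). The edgeR interaction of clone type with cell class, with the clone as a block, passed for 0 of 10540 genes (0% called, every adjusted p 1). At an unadjusted p below 0.05, 2.01% of genes had a positive interaction and 0.285% a negative one, together less than a share of 0.05. Of all genes, 64.9% lay above 0 and the median was 0.79. Without clone 16, the largest N clone, the median was 0.51. In sums simulated with changes in better-expressed genes, the same test recovered 0% of log2 changes of 2 and 0% of log2 changes of 4, so changes of such size were not detectable by it. The genes of smallest p were the Ras exchange factor Rasgrf2 (log2 12.4), Akr1e1 (10.6), Znhit3 (10.5) and 2810410L24Rik (9.71) on the positive side and 2510002D24Rik (-7.87), the potassium channel Kcnt2 (-7.00), Gm20604 (-5.96) and the oxidoreductase Ero1l (-5.45) on the negative one. Each was counted in at most 18 of the 81 cells, so these fitted values rest on clones at 0 and give no fold change.

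Cells of a clone were hardly more alike than cells of different clones of the same type. On log2 values of cells thinned to 20000 counts, the mean correlation was 0.243 within SN clones (38 pairs) and 0.240 between them, and 0.254 within N clones (24 pairs) and 0.230 between them. These are descriptions over pairs that share cells, plate and base composition.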

How the data were processed

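Single cells of MADM-labelled mouse cerebral organoids were measured by Smart-seq3. The authors deposited a table of exon counts and another of intron counts, both raw, with 55359 gene IDs and 287 libraries each, per the file headers. The submitters' processing notes name genome build GRCm39, STAR 2.7.9a and R 4.4.0; the counting tool, annotation, strand and any use of molecular identifiers are not given in the sources used here, so whether a count is a read or a molecule is not known, and overlapping or antisense genes cannot be told apart. No coordinates are given, because no annotation of that build was used here. Symbols matched 52083 IDs, which held 83.4% of exon counts; IDs without a symbol stayed in the totals and tests.

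Of 284 labelled cells, the 247 with at least 1000 genes were kept and summed per clone by the rule in the report. Clone 45, labelled with 2 plates, was put on plate 3, and clone 2 kept its labelled size; the 3 cells with no clone label were left out of comparisons. The highest correlation of log2(CPM + 1) between a pair of progenitor-leaning cells was 0.815, so none was taken as a copy, and doublets were not called, as cells were picked singly. Sums were tested with edgeR 4.0.16 (quasi-likelihood F test, TMM scaling, filterByExpr by clone type, plate as a term, Benjamini-Hochberg over all genes tested, threshold 0.05); TMM factors ran from 0.471 to 1.95 in SN and from 0.341 to 2.83 in N. Unless a cell is named, CPM are clone sums scaled by TMM. Standard errors were taken as the absolute log2 difference divided by sqrt(F). The interaction test used a sum per clone and class with the clone as a block. Shares and library measures were tested over clones by two-sided permutation (100000 resamples, or exact enumeration within plates). DESeq2 1.42.0, limma 3.58.1 and further alternatives are in the closing section; the edgeR tests were tested on simulated data.

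Named genes were the 6 of smallest p per direction (4 for the interaction) with a count in at least 10 cells and a symbol, and those chosen from 39 gene lists by smallest p (up to 3 a list) or named regardless of p; 2 genes that the rule gives are not reported here. The cell rule, the lists and the tests were chosen with earlier results of these data known.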

Additional observations from a re-analysis of the deposited data

How the results depend on the processing

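Sums of few cells of very unequal depth limit every gene value, and clone type goes with clone size; whether size or depth accounts for any value was not tested beyond the settings here. The interaction called 0 genes under its 5 alternatives, and leaving out each clone in turn was not run for it. The SN to N comparison called 0 genes under the alternatives run and when each of 41 clones was left out (0 to 0 genes), except for 2549 genes without a low-count filter, 1 among clones of size 4 to 6 and on plate 3 (the ID ENSMUSG00000119584, log2 -1.20 and -1.21), and 3 on plate 1 (that ID at -0.51, with Psmb4 and Pfdn6 at 14.0 and 13.5, named after their values were seen). Each N sum on plate 1 was a single cell. As a mean share of exon counts per clone, ENSMUSG00000119584 did not pass the permutation test in any of these 3 subsets. Its exact permutation p was 0.0719 among clones of size 4 to 6, 0.338 on plate 3 and 0.464 on plate 1. Without the filter, Spry4, Notch3, Pdzd8, Rmc1, Zdhhc2, Coasy, Rgs4, C9orf72 and Ablim3 passed the threshold at log2 5.89, 5.31, 4.90, -3.73, -3.48, -4.44, -3.54, -4.17 and -4.02. The percent of genes with an unadjusted p under 0.05 that were higher in SN was 67.8% as reported, 68.5% with RLE scaling, 75.5% with limma-voom, 58.4% without the plate term, 88.3% with the number of cells as a term, 27.0% in clones of size 4 to 6 and 29.4% on plate 3. Clone 45, labelled with 2 plates, held no progenitor-leaning cell and so is in no sum of them; without it the share difference was 14.7 points (permutation p = 0.128). The share difference passed at 2000 genes (19.6 points) and at 100000 counts (19.6 points, added after seeing the data). No paired analysis was possible because replicate numbers name cells in accession order and each clone belongs to 1 type.

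Of the 53 genes named, 25 kept their sign under all 20 alternatives that could test them, and 28 changed it in 78 of 988 values; the cause was not tested. Clones of size 4 to 6 gave Coasy 0.24, Slc1a3 -0.34, Hopx -5.15, Eomes -0.94, Mki67 -1.67, Ccnd1 -0.37, Neurod6 -1.67, Tubb3 0.15, mt-Rnr1 -0.29 and Dll1 0.36. Plate 1 alone gave Sox2 -1.11, Hes5 -1.79, Slc1a3 -0.10, Ccnd2 -0.75, Emx1 -1.37, Snap25 0.24, Tubb3 0.92, mt-Rnr1 -0.28, mt-Rnr2 -0.47 and Hey1 -0.42. Plate 2 alone gave Ablim3 3.82, Vim -0.0082, Sox2 -0.36, Pax6 1.36, Nes -0.45, Hes5 -0.067, Eomes -0.63, Top2a 0.80, Emx2 -0.68 and Olig2 -1.08. Plate 3 alone gave Pax6 0.50, Mki67 -0.41, Zbtb20 1.21, Neurod6 -0.29, mt-Rnr1 -0.20 and Nrp1 0.020. limma-voom gave Nes -0.35, Hes5 -0.11, Slc1a3 -0.36, Hopx -0.66, Top2a 0.20, Emx1 -0.36, Nefm 0.67, mt-Rnr1 -0.019 and mt-Rnr2 -0.15. With clone size as a term the values were Hes5 -0.13, Slc1a3 -0.88, Mki67 -0.53, Zbtb20 0.12, Neurod6 -0.61, Tubb3 0.19 and Nrp1 0.040. Clones with 2 or more cells gave Pax6 0.25, Hopx -0.078, Eomes -1.96, Top2a 0.77, Emx1 -0.93, Neurod6 -0.066 and mt-Rnr2 -0.14. Fabp7 above 2 times Stmn2 gave Sox2 -1.23, Nes -0.0030, Hes5 -1.23, Slc1a3 -0.67, Emx2 -0.053 and Tubb3 0.14. Cells of 2000 genes gave Sox2 -0.076 and mt-Rnr2 -0.0078, and cells of 100000 counts Sox2 -0.15, Hes5 -0.031 and mt-Rnr2 -0.066. No plate term gave Sox2 -0.0060, leaving out clone 16 gave Sox2 -0.058 and Hopx -0.17, thinning gave Slc1a3 -0.48, no filter gave Hopx -0.085, a count of 10 in 10 clones gave Hopx -0.019, and exon plus intron counts gave Hopx -0.25 and Sesn1 -0.44.

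With each clone left out in turn, 13 genes changed sign in at least 1 of 41 fits: Eomes (-0.30 to 1.35), Hes5 (-0.65 to 1.48), Hopx (-0.17 to 0.71), Mki67 (-0.013 to 1.08), Nes (-0.24 to 0.84), Neurod6 (-0.16 to 1.17), Pax6 (-0.94 to 0.48), Sox2 (-0.18 to 0.89), Top2a (-0.97 to 0.37), Tubb3 (-0.39 to 0.063), Zbtb20 (-0.55 to 0.032), mt-Rnr1 (-0.0079 to 0.63) and mt-Rnr2 (-0.048 to 0.41). A further 16 genes moved by over 1.5 times without a change of sign, with values beside them in the results, and 24 of 53 stayed within that factor. Of the 8 interaction genes none changed sign under 5 alternatives. Library measures changed sign for the mitochondrial share on plate 1 (-0.556 points), the intron share at 2000 genes (1.77) and on plate 2 (6.14), detected genes on plate 2 (-160.5), detected genes after thinning on plate 2 (-12) and in clones of size 4 to 6 (-5.04), the share of the ID without a symbol on plate 2 (1.74), and log10 exon counts at 2000 genes (-0.166), on plate 1 (-0.148) and on plate 2 (-0.0737).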

Other observations

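The 3 cells that carry no clone label were left out above. They had an exon count in 4954, 13298 and 130 genes. In the first, Fabp7 stood at 8884 and Stmn2 at 1664 CPM, so it would have met the rule for progenitor-leaning cells. In the second, the values were 907 and 2227 CPM, and in the third neither gene had a count, at 2257 exon counts in all.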
